A study of Mus musculus with 3 samples.

Results

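The genes of glycolysis, lactate transport and the response to low oxygen were followed in 3 cultured lines of mouse forestomach fibroblasts, measured on 1 array each. The set was a fixed list of 40 gene symbols, of which 37 had a value on the array and 35 had a signal in some array that reached the overall median, out of 19938 genes with a value and 11808 at or above that level. The 3 listed genes without a value were Gpi1, Gapdh and Eno1, for which no probe set was annotated to that symbol alone. The remaining 2 genes, Car9 and Car12, had values under the median signal of 6.63 in all 3 arrays.

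The tested lines were fibroblasts labelled TGFBR2 cKO, a conditional knockout of Tgfbr2, whose product is a TGF-beta receptor, and fibroblasts labelled TGFBR2/SMAD4 cKO, in which Smad4, the common partner SMAD of the TGF-beta and BMP pathways, is conditionally knocked out as well. Both were set against wild-type fibroblasts, and all 3 lines were FSP1-positive forestomach cells from mice of mixed C57BL6 and BALBc background and of either sex. The Tgfbr2 cKO cells were taken from a forestomach squamous cell carcinoma, while the Tgfbr2/Smad4 cKO and wild-type cells were taken from normal forestomach, so genotype and tissue of origin cannot be told apart in the Tgfbr2 cKO line. Cells were grown in serum-containing medium without a stated change in oxygen. Which promoter drove Cre, and how old the mice were, is not given in the sources used here.

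With 1 array per line no difference has a replicate check and no p-value is given. Tgfbr2 had log2 signals of 10.25 in the Tgfbr2 cKO array, 10.29 in the Tgfbr2/Smad4 cKO array and 10.25 in the wild-type array, and Smad4 had 11.06, 11.04 and 11.06 in the same order. Neither knockout was visible in these signals, so they do not check the labels, by which the lines are called here, and whether the probes lie in the deleted parts was not tested. Xist, the RNA of the inactive X chromosome, had 5.35, 9.44 and 5.33 in that order, and the Y-linked Eif2s3y had 10.00, 5.01 and 10.12, so sex pattern and genotype cannot be told apart in the Tgfbr2/Smad4 cKO line. All 11 listed fibroblast markers were at or above the median signal, among them S100a4, which encodes FSP1, at 13.16, 12.71 and 13.18. Of the listed markers of other cell types, 6 of 6 smooth muscle, 4 of 5 mesothelial, 4 of 8 leukocyte, 3 of 10 squamous epithelial and 1 of 6 endothelial genes with a value reached that level in some array. In such bulk RNA, fewer cells of a type and less RNA per cell cannot be told apart.

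Glycolysis turns glucose into pyruvate in the cytosol, and lactate dehydrogenase then turns pyruvate into lactate, which leaves the cell through monocarboxylate transporters. Hypoxia-inducible factors (HIFs) are transcription factors whose alpha subunits are marked for destruction by oxygen-dependent prolyl hydroxylases, so they build up when oxygen is scarce. They switch on glucose uptake, most glycolytic enzymes, lactate export and genes for mitophagy and matrix folding. In fibroblasts of tumour stroma, glycolysis and lactate export are widely studied because neighbouring epithelial cells can take up the lactate.

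Most of these genes lay on opposite sides of wild type in the 2 knockout lines. In the Tgfbr2 cKO array 29 of 35 were above wild type, a share of 82.9% against 25.8% of all 11808 genes, but by small amounts, with a median log2 difference of 0.10 and 2 of 35 below wild type, against 19% of all genes. No gene of the 35 was 2-fold apart in that array, against 0.0254% of all genes at or past 2-fold on the higher side and 0.00847% on the lower side. In the Tgfbr2/Smad4 cKO array 25 of 35 were below wild type, a share of 71.4% against 32.2% of all genes, with a median log2 difference of -0.24, and 5 of 35 were above it, against 31.1%. The median of all genes was 0 in each comparison. The largest differences were those of Slc16a3, which encodes the lactate exporter MCT4, lower by 4.70-fold in the Tgfbr2/Smad4 cKO array, and of Eno2, which encodes neuronal enolase, higher by 2.14-fold there.

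Taken gene by gene, 23 of 35 were above wild type in the Tgfbr2 cKO array and below it in the Tgfbr2/Smad4 cKO array, a share of 65.7%, whereas 12.4% of all genes had that order. The reverse order was seen for Pfkm and Ldhb, against 7.85% of all genes. Hk1, Eno2 and P4ha1 were higher than wild type in both knockout arrays, against 11% of all genes, and 0 of 35 were lower in both, against 9.58%. Pdk1, Ndrg1 and Ddit4 were higher in the Tgfbr2 cKO array with equal values in the Tgfbr2/Smad4 cKO and wild-type arrays. Slc2a3 and Slc16a1 had equal values in the Tgfbr2 cKO and wild-type arrays and were lower in the Tgfbr2/Smad4 cKO array. Pfkfb4 and Mxi1 had the same value in all 3 arrays, as did 32.7% of all genes. How equal values are treated moves these shares. Centring each array on its median, which gives equal values a sign, put 33 of 35 above wild type in Tgfbr2 cKO, against 81.6% of all genes, and 30 of 35 below it in Tgfbr2/Smad4 cKO, against 69.1%. With quantile normalization these were 31 of 35 against 50.8% and 24 of 35 against 32.1%, and with cyclic loess 30 of 35 against 31.9% and 28 of 35 against 58.4%. Both knockout differences share the wild-type array, so the 2 sets of values are not independent.

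**Figure D1:**
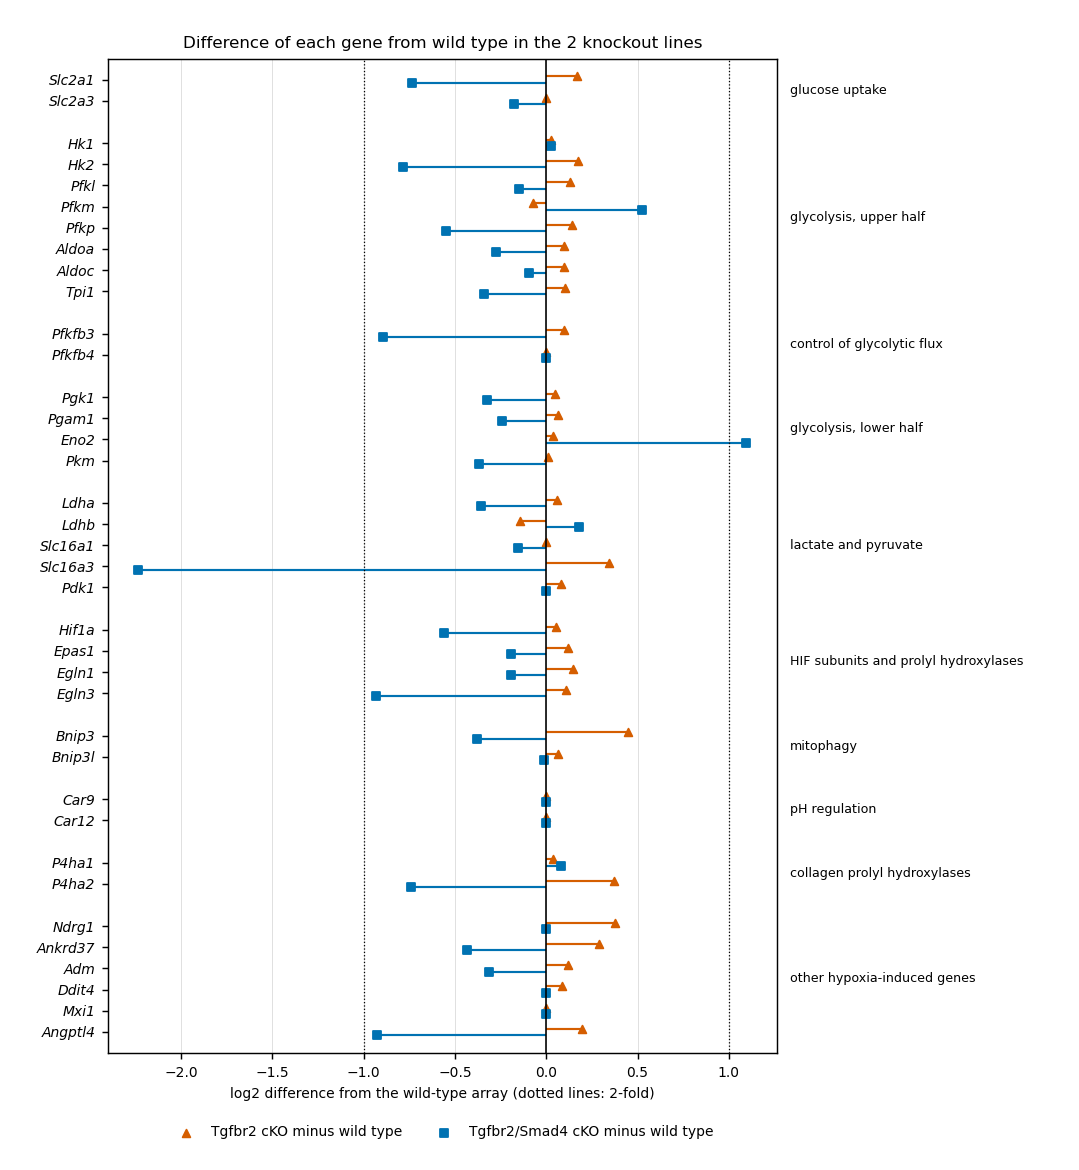
Log2 difference of each gene from the wild-type array (horizontal axis) for the 37 genes with a value, grouped by role, with triangles for Tgfbr2 cKO minus wild type and squares for Tgfbr2/Smad4 cKO minus wild type. Most triangles lie just right of 0 and most squares left of 0, with Slc16a3 at -2.23 and Eno2 at 1.10 past the dotted 2-fold lines.

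Many of these genes are bright, and equal values are less common among bright genes, so the same shares were taken over genes whose highest signal was at or above the 75th percentile, 8.85. There 24 of 26 were above wild type in the Tgfbr2 cKO array, against 35.1% of 6080 genes, and 20 of 26 were below wild type in the Tgfbr2/Smad4 cKO array, against 40% of them. The order with Tgfbr2 cKO highest and Tgfbr2/Smad4 cKO lowest was seen for 19 of 26, against 17.9%. A difference of at least 0.25 on the log2 scale above wild type was seen in the Tgfbr2 cKO array for 5 of 35 genes, against 1.72% of all genes, and for 0 of 35 below it, against 1.49%. In the Tgfbr2/Smad4 cKO array 17 of 35 were at least 0.25 below wild type, against 13.8%, and 2 of 35, Pfkm and Eno2, at least 0.25 above it, against 9.79%.

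**Figure D2:**
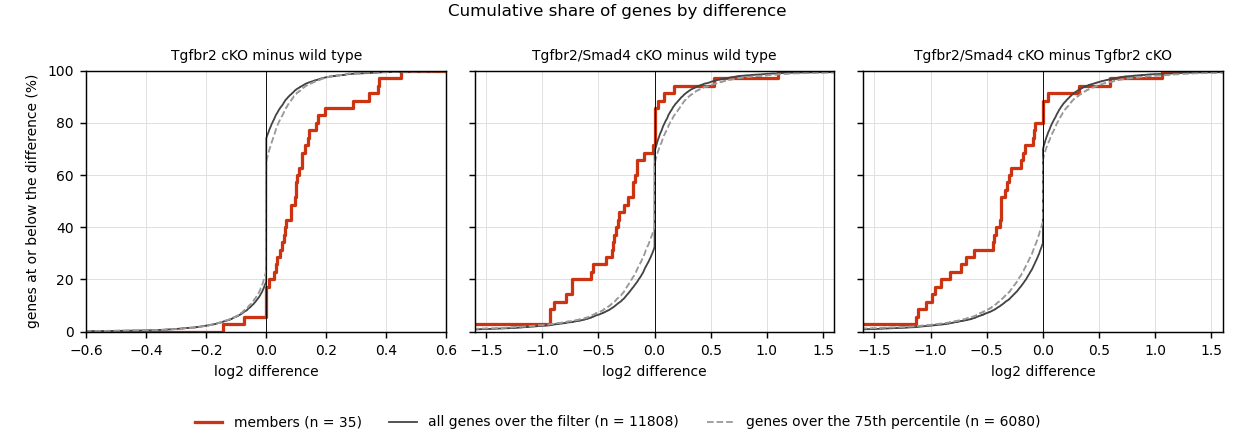
Cumulative share of genes (vertical axis, percent) at or below a given log2 difference (horizontal axis) in the 3 comparisons, for the 35 genes of the set, all 11808 genes at or above the level filter and the 6080 genes at or above the 75th percentile. The curve of the set lies to the right of the others in Tgfbr2 cKO minus wild type and to their left over most of the range in both comparisons of Tgfbr2/Smad4 cKO; the axis leaves out Slc16a3 in those 2 panels.

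The DNA just upstream of the starts of the listed genes was read for ACGTG, 1 form of the core of the element that HIFs bind. Other forms of that core were not searched, so every count of matches here, also 0, is of ACGTG alone. The list was made of glycolysis and hypoxia-induced genes, so the share of matches describes the list and not the array differences. Starts were taken from RefSeq on GRCm38.p6, which listed 50 starts for 35 of the 40 genes. Slc2a3, Epas1, Bnip3l, Ndrg1 and Angptl4 had none in the table. These 35 are not the 35 genes at or above the level filter, since they include Gpi1, Gapdh, Eno1, Car9 and Car12. Within the 250 bases before the start, ACGTG on either strand (ACGTG or CACGT) was present at 25 of 50 starts, or 50%, against 16.6% of 32851 starts of all genes, and for 21 of 35 genes, or 60%, against 18.5% of 27025. The motif overlaps the E-box CACGTG, which gives a match on each strand and was present at 12% of the set's starts against 6.02% of all. The set's windows also held more G and C, with a median of 61% against 52.4% for all windows, and were not matched for it. A match describes the letters only. The 5 genes shown were picked for their differences: Slc16a3, Egln3 and P4ha2 (lower in Tgfbr2/Smad4 cKO), Bnip3 (largest in Tgfbr2 cKO) and Eno2 (higher in Tgfbr2/Smad4 cKO). Their windows follow. They lie at chr11:120948817-120949066 on the plus strand, chr12:54203875-54204124 on the minus strand, chr11:54100674-54100923 on the plus strand, chr7:138909507-138909756 on the minus strand and chr6:124769674-124769923 on the minus strand, and each is written 5′ to 3′ along its gene up to the base before the start, with matches to ACGTG or CACGT in capitals.
Slc16a3: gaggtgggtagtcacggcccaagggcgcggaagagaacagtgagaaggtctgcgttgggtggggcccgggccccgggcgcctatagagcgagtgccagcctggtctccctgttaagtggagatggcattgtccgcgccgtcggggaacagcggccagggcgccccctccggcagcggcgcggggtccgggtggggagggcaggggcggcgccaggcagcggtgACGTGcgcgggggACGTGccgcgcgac
Egln3: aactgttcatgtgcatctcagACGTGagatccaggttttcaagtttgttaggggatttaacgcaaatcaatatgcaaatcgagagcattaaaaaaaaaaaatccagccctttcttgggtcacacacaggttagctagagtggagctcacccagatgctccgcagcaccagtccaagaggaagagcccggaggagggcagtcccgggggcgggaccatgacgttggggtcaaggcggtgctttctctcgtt
P4ha2: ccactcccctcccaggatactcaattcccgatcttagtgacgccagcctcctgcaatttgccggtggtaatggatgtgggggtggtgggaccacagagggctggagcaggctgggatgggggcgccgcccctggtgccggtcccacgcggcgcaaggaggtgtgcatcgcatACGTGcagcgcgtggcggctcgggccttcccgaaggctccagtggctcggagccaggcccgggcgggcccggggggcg
Bnip3: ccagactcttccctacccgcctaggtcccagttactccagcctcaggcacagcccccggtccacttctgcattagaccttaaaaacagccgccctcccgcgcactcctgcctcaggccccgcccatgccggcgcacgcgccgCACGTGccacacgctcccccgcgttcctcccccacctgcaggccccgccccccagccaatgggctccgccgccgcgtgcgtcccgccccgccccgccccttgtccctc
Eno2: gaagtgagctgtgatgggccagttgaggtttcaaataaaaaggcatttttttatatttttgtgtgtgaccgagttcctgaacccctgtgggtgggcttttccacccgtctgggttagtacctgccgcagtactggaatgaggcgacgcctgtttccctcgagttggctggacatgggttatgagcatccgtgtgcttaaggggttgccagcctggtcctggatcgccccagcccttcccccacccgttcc
Slc16a3 held 2 matches, 27 and 14 bases before the start, Egln3 held 1 and P4ha2 held 1, and Bnip3 held 2 that overlap in an E-box. The Eno2 window held 0 matches. Matches were not confined to genes of the common order. Pfkm, of the reverse order, held them at some of its starts, and so did Mxi1, equal in all 3 arrays. P4ha1, higher than wild type in both knockout arrays, held 1. Pfkl, Pfkp, Tpi1, Aldoc and Adm, of the common order, held 0.

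Glucose enters through the transporters encoded by Slc2a1 and Slc2a3. Slc2a1 had log2 signals of 12.38 in the Tgfbr2 cKO array, 11.48 in the Tgfbr2/Smad4 cKO array and 12.21 in the wild-type array. It was thus 1.12-fold higher than wild type in Tgfbr2 cKO and 1.67-fold lower in Tgfbr2/Smad4 cKO. Slc2a3, the transporter of higher affinity, had signals of 6.89, 6.72 and 6.89 in the same order, close to the median signal of all probe sets, and differed from wild type by 0 and -0.18.

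The early enzymes of glycolysis trap and rearrange glucose. Hk2, the inducible hexokinase that sits on mitochondria, had signals of 10.88 in the Tgfbr2 cKO array, 9.92 in the Tgfbr2/Smad4 cKO array and 10.71 in the wild-type array, so that it was 1.72-fold lower in Tgfbr2/Smad4 cKO than in wild type. Hk1, the widely expressed hexokinase, had 11.66, 11.66 and 11.63, with differences of 0.03 in each knockout array. Its 2 probe sets disagreed, 1 with a difference of 0.05 in Tgfbr2 cKO and 0 in Tgfbr2/Smad4 cKO, the other with 0 and 0.06.

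Phosphofructokinase, which commits sugar to glycolysis, is made of liver, muscle and platelet subunits. The platelet subunit gene Pfkp had signals of 10.56 in Tgfbr2 cKO, 9.87 in Tgfbr2/Smad4 cKO and 10.42 in wild type, and the liver subunit gene Pfkl had 11.01, 10.73 and 10.88. The muscle subunit gene Pfkm had 9.93, 10.52 and 10.00. Pfkm was therefore 1.44-fold higher in Tgfbr2/Smad4 cKO than in wild type, while Pfkp was 1.46-fold lower and Pfkl 1.11-fold lower there. Pfkfb3, which makes the sugar phosphate that activates phosphofructokinase, had 9.91, 8.92 and 9.82, a 1.86-fold lower signal in Tgfbr2/Smad4 cKO than in wild type. Its relative Pfkfb4 had 7.60 in each array.

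The aldolase and triosephosphate isomerase genes, whose products split the sugar and interconvert the products, followed the common order. Aldoa had 13.75 in Tgfbr2 cKO, 13.37 in Tgfbr2/Smad4 cKO and 13.65 in wild type, and Tpi1 had 13.01, 12.57 and 12.91. Aldoc, the aldolase of brain, was dim at 6.82, 6.62 and 6.72. Aldoa was 1.21-fold and Tpi1 1.27-fold lower in Tgfbr2/Smad4 cKO than in wild type.

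The later enzymes, which yield ATP, differed by similar small steps. Pgk1 (phosphoglycerate kinase) had 13.63 in Tgfbr2 cKO, 13.26 in Tgfbr2/Smad4 cKO and 13.59 in wild type, Pgam1 (phosphoglycerate mutase) had 12.50, 12.20 and 12.44, and Pkm (pyruvate kinase) had 13.13, 12.75 and 13.12. Their differences in Tgfbr2/Smad4 cKO were -0.32, -0.24 and -0.37 on the log2 scale, and in Tgfbr2 cKO they were 0.05, 0.06 and 0.01 in the same order. Of the 3 probe sets of Pgk1, as of Pgam1, 2 carried identical values, so their averages rest on fewer measurements than probe sets.

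Eno2 lay furthest above wild type of the 5 of 35 genes that were higher in Tgfbr2/Smad4 cKO, with Pfkm next at 0.53. It had 8.02 in the Tgfbr2 cKO array, 9.08 in the Tgfbr2/Smad4 cKO array and 7.99 in the wild-type array, and so was high in the Tgfbr2/Smad4 cKO array alone. Its log2 difference from wild type there was 1.10, which ranked 115 from the highest of 11808 genes.

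At the end of the pathway, Ldha, the lactate dehydrogenase subunit that favours lactate production, had 13.54 in Tgfbr2 cKO, 13.13 in Tgfbr2/Smad4 cKO and 13.48 in wild type. Ldhb, the subunit that favours pyruvate, had 7.90, 8.22 and 8.04. Ldha was thus 1.28-fold lower and Ldhb 1.13-fold higher in Tgfbr2/Smad4 cKO than in wild type, and the reverse held in Tgfbr2 cKO, by 0.06 and -0.14 on the log2 scale. The 2 probe sets of Ldhb differed in size, with 0.26 and 0.09 in Tgfbr2/Smad4 cKO and -0.29 and 0 in Tgfbr2 cKO. Pdk1, the kinase that keeps pyruvate out of mitochondria, had 8.49, 8.40 and 8.40.

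Slc16a3 had signals of 11.02 in the Tgfbr2 cKO array, 8.44 in the Tgfbr2/Smad4 cKO array and 10.67 in the wild-type array. Its log2 difference from wild type in Tgfbr2/Smad4 cKO, -2.23, ranked 21 from the lowest of 11808 genes, and that in Tgfbr2 cKO, 0.34, ranked 102 from the highest. It was the 1 gene of 35 at least 2-fold lower in Tgfbr2/Smad4 cKO than in wild type, and Eno2 the 1 at least 2-fold higher, against 2.18% and 1.22% of all genes, so these counts lie near the background. Slc16a1, which encodes the transporter MCT1 that carries lactate in either direction, had 8.93, 8.77 and 8.93, a difference of -0.16 in Tgfbr2/Smad4 cKO. Just short of 2-fold in that comparison lay Egln3 at -0.93, Angptl4 at -0.93 and Pfkfb3 at -0.89.

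**Figure D3:**
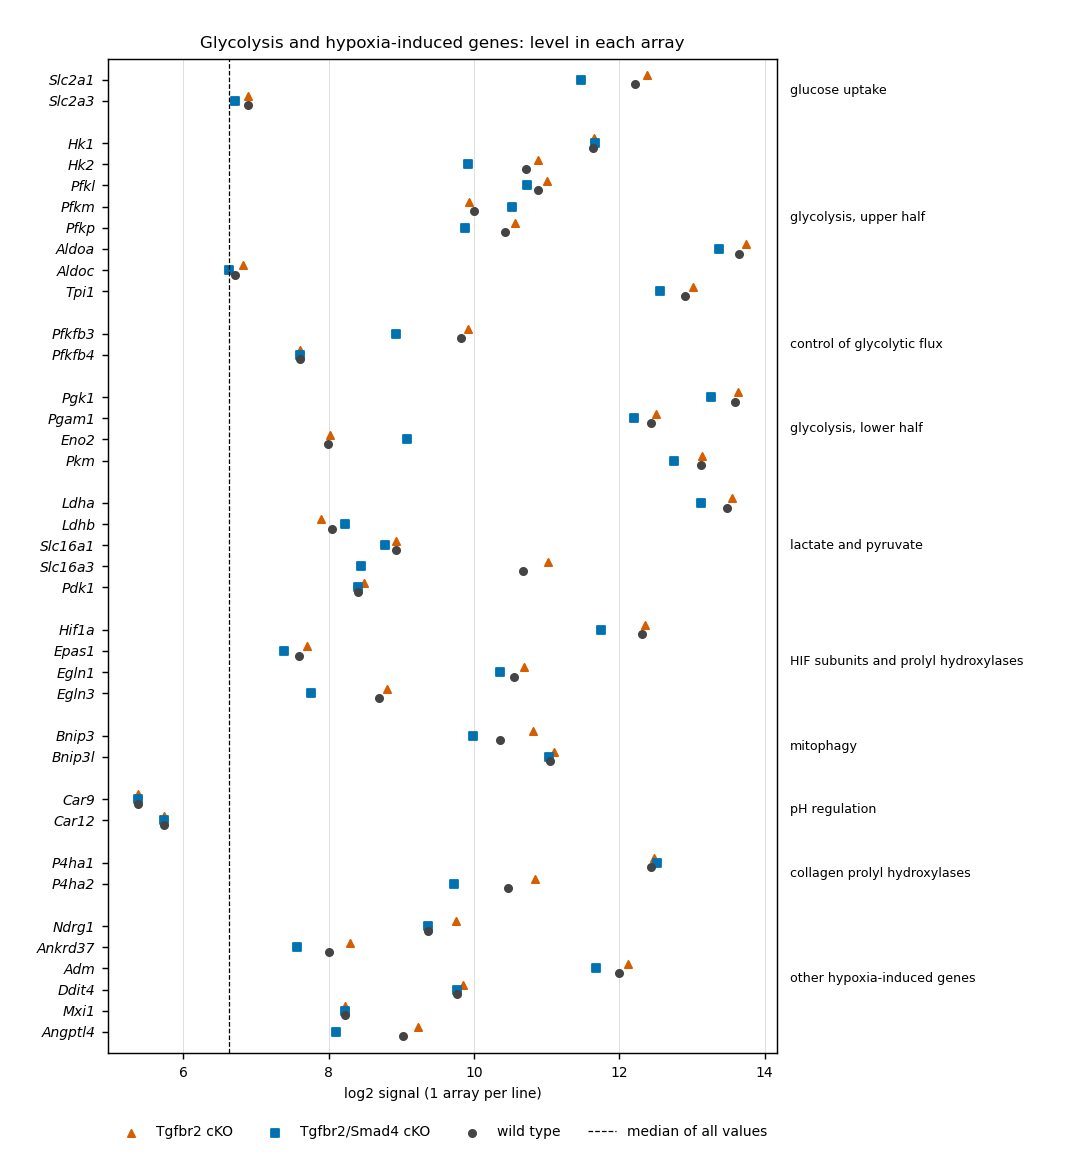
Log2 signal in each array (horizontal axis) for the 37 genes with a value, grouped by role, with triangles for Tgfbr2 cKO, squares for Tgfbr2/Smad4 cKO and circles for wild type; the dashed line is the median of all values, 6.63. Within a gene the square is usually leftmost and the triangle rightmost; positions of different genes are not to be compared, since probe sets differ in brightness.

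The 4 genes of HIF subunits and prolyl hydroxylases in the set moved in the same order. Outside the set, the HIF-regulating gene Egln2 differed from wild type by 0 in Tgfbr2 cKO and 0.04 in Tgfbr2/Smad4 cKO, and Hif1an by 0 in both. Hif1a, which encodes the most widely expressed HIF alpha subunit, had 12.36 in Tgfbr2 cKO, 11.74 in Tgfbr2/Smad4 cKO and 12.30 in wild type, and Epas1, the gene of the HIF-2 alpha subunit, had 7.71, 7.39 and 7.59. Hif1a was 1.48-fold lower in Tgfbr2/Smad4 cKO than in wild type, and Epas1 1.14-fold lower. HIF activity is set largely by protein stability, which an array does not read. Egln1, the main prolyl hydroxylase that marks HIF, had 10.69, 10.36 and 10.55. Egln3, a prolyl hydroxylase that HIF itself induces, had 8.80, 7.76 and 8.69, and was 1.91-fold lower in Tgfbr2/Smad4 cKO than in wild type.

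The hypoxia-induced genes outside glycolysis held the largest differences in Tgfbr2 cKO. Bnip3, a mitochondrial outer membrane protein gene that promotes mitophagy, had 10.81 in Tgfbr2 cKO, 9.98 in Tgfbr2/Smad4 cKO and 10.36 in wild type. It was 1.37-fold higher in Tgfbr2 cKO than in wild type, a difference that ranked 52 from the highest of 11808 genes. Its 2 probe sets were 0.41 and 0.48 above wild type in Tgfbr2 cKO but -0.70 and -0.06 in Tgfbr2/Smad4 cKO, so the size of the second difference depends on the probe set. Its relative Bnip3l had 11.10, 11.03 and 11.04, and its difference of -0.01 in Tgfbr2/Smad4 cKO turned to 0.02 with quantile normalization.

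Ndrg1, a stress-responsive gene named for its regulation by N-myc, had 9.75 in Tgfbr2 cKO, 9.37 in Tgfbr2/Smad4 cKO and 9.37 in wild type, and so was 1.30-fold higher in Tgfbr2 cKO alone, at rank 80 from the highest. P4ha2, an alpha subunit of collagen prolyl hydroxylase, had 10.84, 9.72 and 10.46, and was 1.29-fold higher in Tgfbr2 cKO and 1.67-fold lower in Tgfbr2/Smad4 cKO than in wild type. The other alpha subunit gene, P4ha1, had 12.47, 12.52 and 12.44, with differences of 0.03 and 0.08 from wild type. Ankrd37, an ankyrin repeat gene induced by HIF, had 8.29 in Tgfbr2 cKO and 7.56 in Tgfbr2/Smad4 cKO, which was 1.22-fold above the wild-type signal in Tgfbr2 cKO and 1.35-fold below it in Tgfbr2/Smad4 cKO.

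Angptl4, a secreted inhibitor of lipoprotein lipase, had 9.22 in Tgfbr2 cKO, 8.10 in Tgfbr2/Smad4 cKO and 9.03 in wild type, and was 1.90-fold lower in Tgfbr2/Smad4 cKO than in wild type. Adm, which encodes the vasodilator peptide adrenomedullin, had 12.11, 11.68 and 11.99. Ddit4, an inhibitor of mTOR signaling, had 9.85, 9.77 and 9.77, and Mxi1, a MYC antagonist, had 8.23 in each array. The carbonic anhydrase genes Car9 and Car12, which regulate pH at the cell surface, had 5.38 and 5.73 in each array, under the median signal.

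Set directly against each other, the Tgfbr2/Smad4 cKO array was below the Tgfbr2 cKO array for 28 of 35 genes, a share of 80% against 33.7% of all genes, with a median of -0.37 on the log2 scale, and above it for 5 of 35, against 30.2%. This comparison differs in Smad4 genotype, tissue of origin and sex pattern together. At least 2-fold lower were 4 of 35 genes, against 2.25% of all: Slc16a3 by 5.96-fold, Angptl4 by 2.18-fold, P4ha2 by 2.16-fold and Egln3 by 2.06-fold. Just short of 2-fold lay Pfkfb3 at -0.99, Hk2 at -0.96 and Slc2a1 at -0.90. Eno2 was the 1 gene at least 2-fold higher, at 2.08-fold, against 1.32% of all genes. Since this comparison shares an array with each of the others, its values add no further sample.

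The other genes of these pathways were read from lists separate from the 40. Of 33 other HIF target genes at or above the level filter, 20 were above wild type in Tgfbr2 cKO and 2 below, with a median of 0.04, and 7 were above and 19 below in Tgfbr2/Smad4 cKO, with a median of -0.10. Against the shares of all genes given above, both counts leaned the same way as the glycolysis set. Equal to wild type were 11 of the 33 in Tgfbr2 cKO and 7 in Tgfbr2/Smad4 cKO. The counts of this list were not repeated under other normalizations, which moved the shares of all genes. Ak4, a mitochondrial adenylate kinase, had 9.56 in Tgfbr2 cKO, 8.03 in Tgfbr2/Smad4 cKO and 9.22 in wild type, and the placental growth factor gene Pgf had 7.96, 6.59 and 7.64. Tfrc, the transferrin receptor gene, had 10.31, 8.08 and 10.15, and Errfi1, a feedback inhibitor of the EGF receptor, had 11.53, 10.33 and 11.49. These 4 of 33 genes were at least 2-fold lower in Tgfbr2/Smad4 cKO than in wild type, against 2.18% of all genes. Igfbp3, which binds insulin-like growth factors, went the other way with 8.54, 10.67 and 8.89. It was the 1 gene of 33 at least 2-fold higher, against 1.22% of all genes.

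Genes that regulate HIF had a median of 0 in both knockout arrays over 14 genes. The largest differences in Tgfbr2/Smad4 cKO were -0.87 for Cited2, which competes with HIF for its coactivator, and 0.29 for Vhl, the ubiquitin ligase subunit that captures hydroxylated HIF. Of 11 other glycolytic and gluconeogenic isozymes, 3 were above and 6 below wild type in Tgfbr2/Smad4 cKO, with Adpgk, the ADP-dependent glucokinase gene, at -0.78 and the transporter gene Slc2a10 at -0.63. Of 8 glycogen genes, 2 were above, 2 below and 4 equal to wild type in Tgfbr2 cKO, with a median of 0, and 1 was above and 5 below in Tgfbr2/Smad4 cKO, with a median of -0.23. Pygl, the glycogen phosphorylase of liver type, had 9.97 in Tgfbr2 cKO, 6.85 in Tgfbr2/Smad4 cKO and 9.35 in wild type, the one glycogen gene at least 2-fold apart in any comparison.

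Pathways that branch from or follow glycolysis were divided between the directions, with medians of 0 in Tgfbr2 cKO. Of 9 pentose phosphate genes, 3 were above and 3 below wild type in Tgfbr2 cKO. In Tgfbr2/Smad4 cKO 3 were above, against 31.1% of all genes, and 5 below, or 55.6% against 32.2%, with a median of -0.09. There 4 of the 9 were at least 0.25 below wild type, against 13.8% of all genes, with Pgd at -0.80 and Tkt at -0.46. This list thus also leaned below wild type in Tgfbr2/Smad4 cKO. Of 29 genes of pyruvate dehydrogenase and the TCA cycle, 10 were above and 7 below in Tgfbr2 cKO, and 10 above and 12 below in Tgfbr2/Smad4 cKO, with a median of 0 in both. The largest there were Pdp1, the phosphatase that reactivates pyruvate dehydrogenase, at 0.99, and Pcx, pyruvate carboxylase, at 0.61. Of 28 subunits of oxidative phosphorylation, 12 were above and 5 below in Tgfbr2 cKO and 11 above and 8 below in Tgfbr2/Smad4 cKO. Among these was Ndufa4l2, a subunit paralogue known as a HIF target, which had 7.86, 7.07 and 7.57 in the order Tgfbr2 cKO, Tgfbr2/Smad4 cKO and wild type. Ndufb3, a complex I subunit gene, went the other way with 9.43, 9.86 and 9.51.

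**Figure D4:**
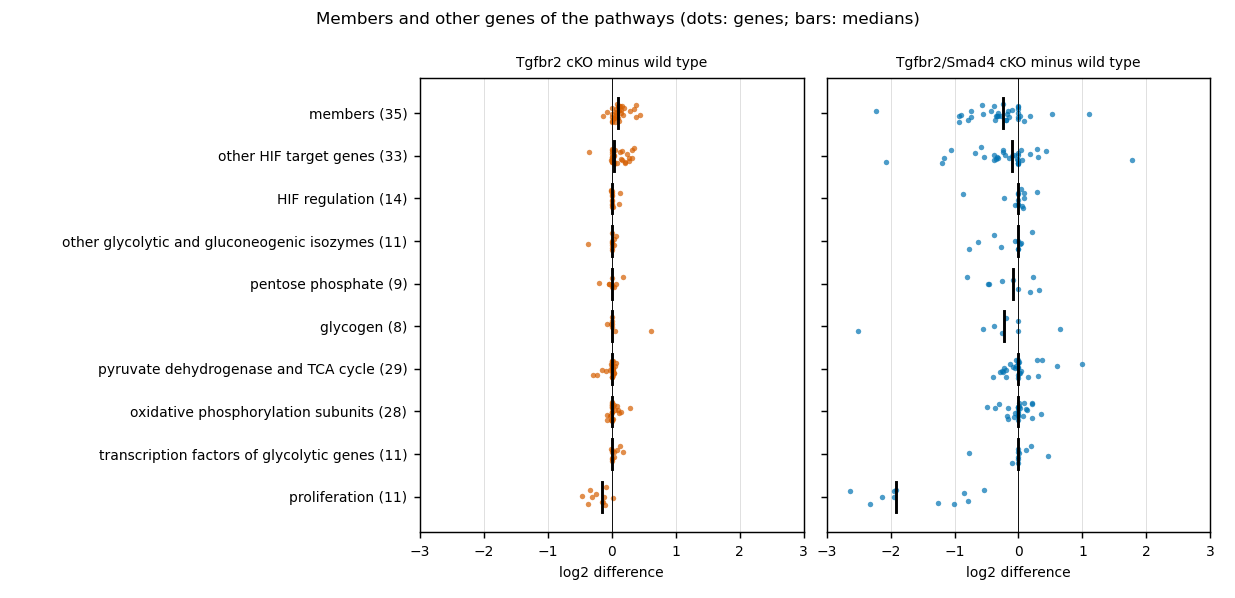
Log2 difference of each gene from wild type (horizontal axis, dots) for the 35 genes of the set and for the other lists, with the number of genes at or above the level filter in brackets and the list median as a black bar; left, Tgfbr2 cKO, right, Tgfbr2/Smad4 cKO. The set's median is 0.10 on the left and -0.24 on the right, and the proliferation markers have a median of -1.92 on the right. The mitochondrial lists have medians of 0 on both sides. The pentose phosphate list has a median of 0 on the left and -0.09 on the right, where that of the other HIF target genes is -0.10.

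Markers of proliferation moved with the Tgfbr2/Smad4 cKO differences. All 11 proliferation markers with a value were below wild type there, with a median of -1.92, and the log2 of their summed signal was 13.25 in Tgfbr2 cKO, 12.16 in Tgfbr2/Smad4 cKO and 13.43 in wild type. In Tgfbr2 cKO, where the glycolysis set was above wild type, 10 of the 11 were below it, with a median of -0.16. In Tgfbr2/Smad4 cKO minus wild type, 8 of the 11 were at least 2-fold lower, against 2.18% of all genes. These were Mki67 at -1.94, Top2a at -1.01, Ccna2 at -2.13, Cdk1 at -1.26, Bub1 at -2.64, Kif11 at -2.31, Mcm6 at -1.95 and Plk1 at -1.92. Of 11 transcription factors of glycolytic genes, 5 were above and 1 below wild type in Tgfbr2 cKO, and 4 above and 2 below in Tgfbr2/Smad4 cKO, with a median of 0 in both. The largest differences in that list lay in opposite directions, with Myc at 10.18, 9.27 and 10.05 and Usf1 at 8.15, 8.43 and 7.97 in the order Tgfbr2 cKO, Tgfbr2/Smad4 cKO and wild type.

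Markers of cell types moved as well. The log2 of the summed signal of the 11 fibroblast markers was 16.63 in Tgfbr2 cKO, 16.74 in Tgfbr2/Smad4 cKO and 16.58 in wild type, but single markers lay far apart in Tgfbr2/Smad4 cKO minus wild type, with Thy1 at -2.36 and S100a4 at -0.48 against Pdgfra at 1.40, Lum at 1.21 and Fap at 1.09. All 6 smooth muscle markers were below wild type in Tgfbr2/Smad4 cKO, with a summed signal of 16.21, 15.35 and 16.16 in the same order and scale. At least 2-fold lower there were 4 of the 6, against 2.18% of all genes: Myh11 at -3.37, Actg2 at -2.85, Des at -2.06 and Cnn1 at -1.62. The 5 mesothelial markers had a summed signal of 10.09, 9.41 and 10.81. The 4 of them at or above the level filter were below wild type in both knockout arrays, with medians of -0.64 in Tgfbr2 cKO and -0.83 in Tgfbr2/Smad4 cKO. Among these, Upk1b was at -0.83 in Tgfbr2 cKO and -3.48 in Tgfbr2/Smad4 cKO, and Upk3b at -1.07 and -1.14. The summed signal of the 8 leukocyte markers was 10.48, 9.70 and 10.05, with Lyz2 at 9.52, 7.75 and 8.70. That of the 10 squamous epithelial markers was 9.77, 9.56 and 9.77, with Krt18 at -0.61 and Ivl at -0.48 in Tgfbr2/Smad4 cKO minus wild type. The 6 endothelial markers summed to 8.61 in each array, and Vwf had 6.83 in each. The part of any of these in the glycolysis and hypoxia differences was not tested.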

How the data were processed

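RNA from 3 fibroblast lines was read on Affymetrix Mouse Gene 1.0 ST arrays, 1 per line, per the labels' protocols. The authors deposited 35556 probe set values per array, read here as log2 signal from their range of 2.82 to 15.6. How background and normalization were handled is not given in the sources used here. Column medians differed by at most 0.00413, so values were used as deposited. Of all probe sets, 21789 had 1 gene symbol in the platform annotation, 1621 had several and 12146 were not listed. Symbols were updated by gene identifier for 21698 with a RefSeq table of GRCm38.p6. Probe sets of a gene were averaged, giving 19938 genes, and a gene was kept if its highest value reached the median of all values, 6.63, which left 11808. For each pair of arrays the log2 difference was taken, and a gene was called at 2-fold. Members, lists and rules were chosen with earlier results of these data known. All 40 members are named, and of other lists the genes at least 2-fold apart or, where none were, the 2 with the largest difference. Exactly equal values were common, at 55.1% of genes between Tgfbr2 cKO and wild type and 36.7% between Tgfbr2/Smad4 cKO and wild type. The number of arrays limits the precision. The 2-fold call was tested on simulated data that held no equal values. The counts above, below and equal to wild type were not tested in that way. Alternatives were median centring, quantile and cyclic loess normalization, other level filters, other ways to combine probe sets, an offset of 32 and fold rules of 1.5 and 3. Python 3.11.15, numpy 2.4.6, pandas 2.3.3, matplotlib 3.10.9, R 4.3.3 and limma 3.58.1 were used.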

Additional observations from a re-analysis of the deposited data

How the results depend on the processing

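No paired analysis was possible because each group holds 1 array. The set's median difference kept its sign under every alternative run, between 0.08 and 0.10 in Tgfbr2 cKO minus wild type, between -0.32 and -0.20 in Tgfbr2/Smad4 cKO minus wild type and between -0.38 and -0.33 in Tgfbr2/Smad4 cKO minus Tgfbr2 cKO. The number of genes above wild type in Tgfbr2 cKO and below it in Tgfbr2/Smad4 cKO, 23 of 35, changed with the setting. It was 18 of 28 with genes of 1 probe set only, against 12% of all genes, and 23 of 37 with no level filter, against 7.72%. Median centring, which gives equal values a sign, put it at 30 of 35, against 58.3% of all genes. The 2 genes below wild type in Tgfbr2 cKO became 4 with quantile normalization, against 48% of all genes, and 5 with cyclic loess, against 68.1%. They became 1 with the filter at the 75th percentile, against 23.1%, and 1 with genes of 1 probe set only, against 18.2%. The 5 genes above wild type in Tgfbr2/Smad4 cKO became 11 with quantile normalization, against 67.7% of all genes. With genes of 1 probe set only they became 3, against 30.4%. With that setting the 5 that were higher in Tgfbr2/Smad4 cKO than in Tgfbr2 cKO also became 3, against 29.5%. With 32 added to the linear signal, 0 genes were at least 2-fold higher in Tgfbr2/Smad4 cKO than in Tgfbr2 cKO, against 1.18% of all genes, since Eno2 was at 0.97. A 1.5-fold rule gave 7 genes lower in Tgfbr2/Smad4 cKO than in wild type, against 5.09% of all genes, and against Tgfbr2 cKO 2 higher and 11 lower, where 3.4% and 5.61% of all genes were. A 3-fold rule gave 0 higher in each of these comparisons, against 0.466% and 0.517% of all genes, and 1 lower against Tgfbr2 cKO, Slc16a3, against 0.847%. With the probe set of highest mean, Bnip3 was at -1.11 in Tgfbr2/Smad4 cKO minus Tgfbr2 cKO. Of the differences of single genes recomputed under the alternatives, 604 moved by under 0.1 and 5 by more. With 1 array per line no difference has a measured error, and dim genes are limited by signal too.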

Other observations

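Some related genes with the same step of metabolism differed unequally, and the pairs named for this were picked out after their values were seen. Not all pairs did so to that degree. Aldoc exceeded Aldoa by 0.18 in Tgfbr2/Smad4 cKO minus wild type and by 0.0002 in Tgfbr2 cKO minus wild type. In Tgfbr2/Smad4 cKO minus wild type, the log2 difference of the muscle phosphofructokinase gene Pfkm exceeded that of the platelet gene Pfkp by 1.07, since Pfkm was at 0.53 and Pfkp at -0.55. That of Ldhb exceeded that of Ldha by 0.53, that of Hk1 exceeded that of Hk2 by 0.81 and that of P4ha1 exceeded that of P4ha2 by 0.82. The widest gap was between the lactate transporter genes, with Slc16a1 exceeding Slc16a3 by 2.08. In Tgfbr2 cKO minus wild type the same gaps were -0.21 for Pfkm and Pfkp, -0.20 for Ldhb and Ldha, -0.15 for Hk1 and Hk2, -0.34 for P4ha1 and P4ha2 and -0.34 for Slc16a1 and Slc16a3. With 1 array per line these gaps have no measured error.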
